A study of Mus musculus with 8 samples.

Results

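The genes that encode the factors of cytoplasmic translation initiation and elongation were compared between testes of mice with and without Tmem232. Members were the rows of the deposited expression table whose gene symbol begins with Eif1 to Eif6, Eef1 or Eef2, which gave 67 of 19906 genes. The rule reads only symbols and no measured value. It also takes in the kinases, inhibitors and methyltransferases that carry these symbols.

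Whole testis was taken from 4 animals labelled Tmem232-/-, carrying a knockout of the gene for a testis-enriched transmembrane protein, and from 4 animals labelled Tmem232+/+, the wild type, all aged 2 months. The study made the knockout by CRISPR-Cas9 in C57BL/6 mice, and it is a whole-body deletion rather than one restricted to germ cells. Total RNA from each testis gave 1 library, so n is 4 for each genotype, and the libraries are called knockout-labelled and wild-type-labelled after their labels. In a library of whole testis, fewer cells of a type and less RNA per cell cannot be told apart.

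Translation begins when eIF2, bound to GTP, brings the initiator tRNA to the small ribosomal subunit, where eIF1, eIF1A, eIF3 and eIF5 hold it while the messenger is scanned. The messenger is brought in by eIF4E, which binds the cap, eIF4A, a helicase, and eIF4G, the scaffold that joins them to eIF3. eEF1A then delivers each aminoacyl-tRNA, the eEF1B complex reloads eEF1A with GTP, and eEF2 moves the ribosome along. In the testis, messengers made in spermatids are stored and translated later, and several of these factors have germ-cell or sex-linked copies.

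Summed estimated counts ran from 15428421 to 16350871 per library. The count of Tmem232 itself was higher in the knockout-labelled libraries, at 148, 132, 123 and 122 CPM, the count scaled to library size, than in the wild-type-labelled ones, at 111, 106, 108 and 110 CPM, which neither checks nor contradicts the labels, since the deletion removes only a stretch between introns of the gene and the count covers the whole of it. Markers of later germ cells moved with the genotype, with 11 of 12 round spermatid genes and 12 of 13 elongating spermatid genes higher at an adjusted p under 0.05 by edgeR and none lower. The summed level of the round spermatid genes was 904 to 1129 CPM in the knockout-labelled libraries and 421 to 622 CPM in the others. That of the elongating spermatid genes was 1708 to 2689 and 648 to 1193 CPM. Of the spermatogonial markers 3 of 8 were lower, with summed levels of 213 to 231 against 253 to 278 CPM, as were 2 of 5 peritubular myoid markers. Among spermatocyte markers 1 of 10 was higher and 1 lower, and no tested marker of Sertoli, Leydig, macrophage, endothelial, red blood or epididymal cells was called. Every germ cell and Sertoli cell marker had reads, as the labelled tissue requires. The part of these shifts in the results on translation factors was not tested. Library 3 labelled Tmem232+/+ lay outside the range of the other 3 of its group for 79.7% of the tested factors and 71.4% of all tested genes. For any other library this held for 18.8% to 54.7% of the factors and 28.0% to 56.6% of all genes. Library 3 labelled Tmem232+/+ also had the highest summed spermatogonial, spermatocyte, round spermatid, elongating spermatid and peritubular myoid markers of its group. Without it the log2 fold change of 34 of the 64 tested factors changed sign or moved by over 1.5 times. Without library 1 of that genotype 42 did so, and without any 1 of the other 6 libraries 14 to 25, and none of these was a factor called with all 8 libraries.

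Of the 67 factors, 64 had enough counts to be tested. Only Eef1d, a subunit of the exchange factor of eEF1A, and Eif4g1, an eIF4G scaffold, passed an adjusted p of 0.05 in edgeR's quasi-likelihood test, both higher in the knockout-labelled libraries. These 2 are 3.12% of the tested factors, where 10.3% of all 15787 tested genes were called higher. No factor was called lower, where 1.46% of all genes were. At an unadjusted p under 0.05, 4 factors were higher (6.25%, against 14.6% of all genes) and 10 were lower (15.6%, against 10.5%). DESeq2 called 1 factor lower, Eif4a1, where 1.25% of all genes with an adjusted p were, and limma-voom none, where 1.47% were. Limma on log2(FPKM + 1) called Eef1d and Eif4g1 higher, where 9.74% of all genes were, and Eif2b1, Eif4a1 and Eif4enif1 lower, where 2.95% were.

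The differences were small. The median log2 fold change of the 64 factors was −0.06, and that of all tested genes was −0.05. For 58 of the 64 factors (90.6%) the log2 fold change lay within 0.25 of 0, against 72.1% of all genes. The standard error of a factor's log2 fold change had a median of 0.0838, against 0.113 over all genes, and ran from 0.0567 for Eif4b, a helper of the helicase, to 0.271 for Eif3j2. CPM of the genotypes did not overlap for 3 factors that were higher (4.69%, against 11.8% of all genes) and for 4 that were lower (6.25%, against 6.88%). FPKM did not overlap for 2 that were higher (3.12%, against 11.0%) and for 10 that were lower (15.6%, against 9.57%).

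**Figure D1:**
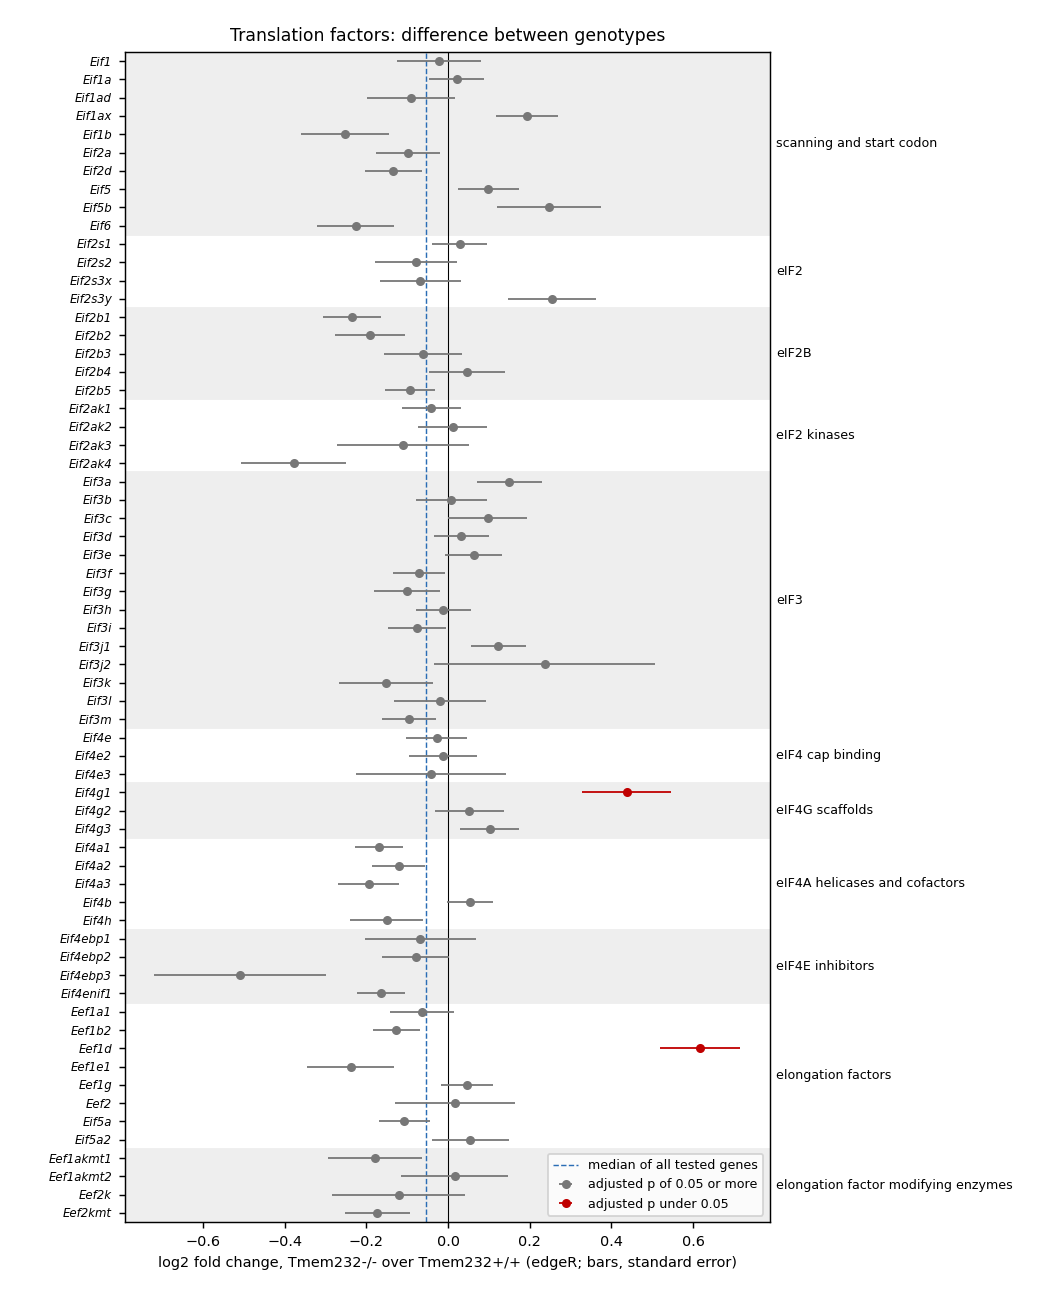
Log2 fold change of each of the 64 tested translation factors, knockout-labelled libraries over the wild-type-labelled ones, grouped by role, with standard errors (edgeR, n = 4 per genotype). The dashed line is the median of all tested genes, at −0.05. Eef1d and Eif4g1, in red, are the factors with an adjusted p under 0.05.

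Levels differed far more between factors than between genotypes. FPKM, which is corrected for transcript length, averaged at least 100 for 22 factors and under 10 for 13. Eef1a1 alone made up 21.8% to 25.0% of the summed FPKM of all 67 factors in a library. The summed FPKM of the 67 was 7464 ± 74.2 (SD, n = 4) in the knockout-labelled libraries and 7843 ± 134 (SD, n = 4) in the others, and the sums did not overlap, at 7354 to 7513 against 7731 to 8034. Their share of all FPKM did, at 1.41% to 1.53% against 1.41% to 1.59%.

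**Figure D2:**
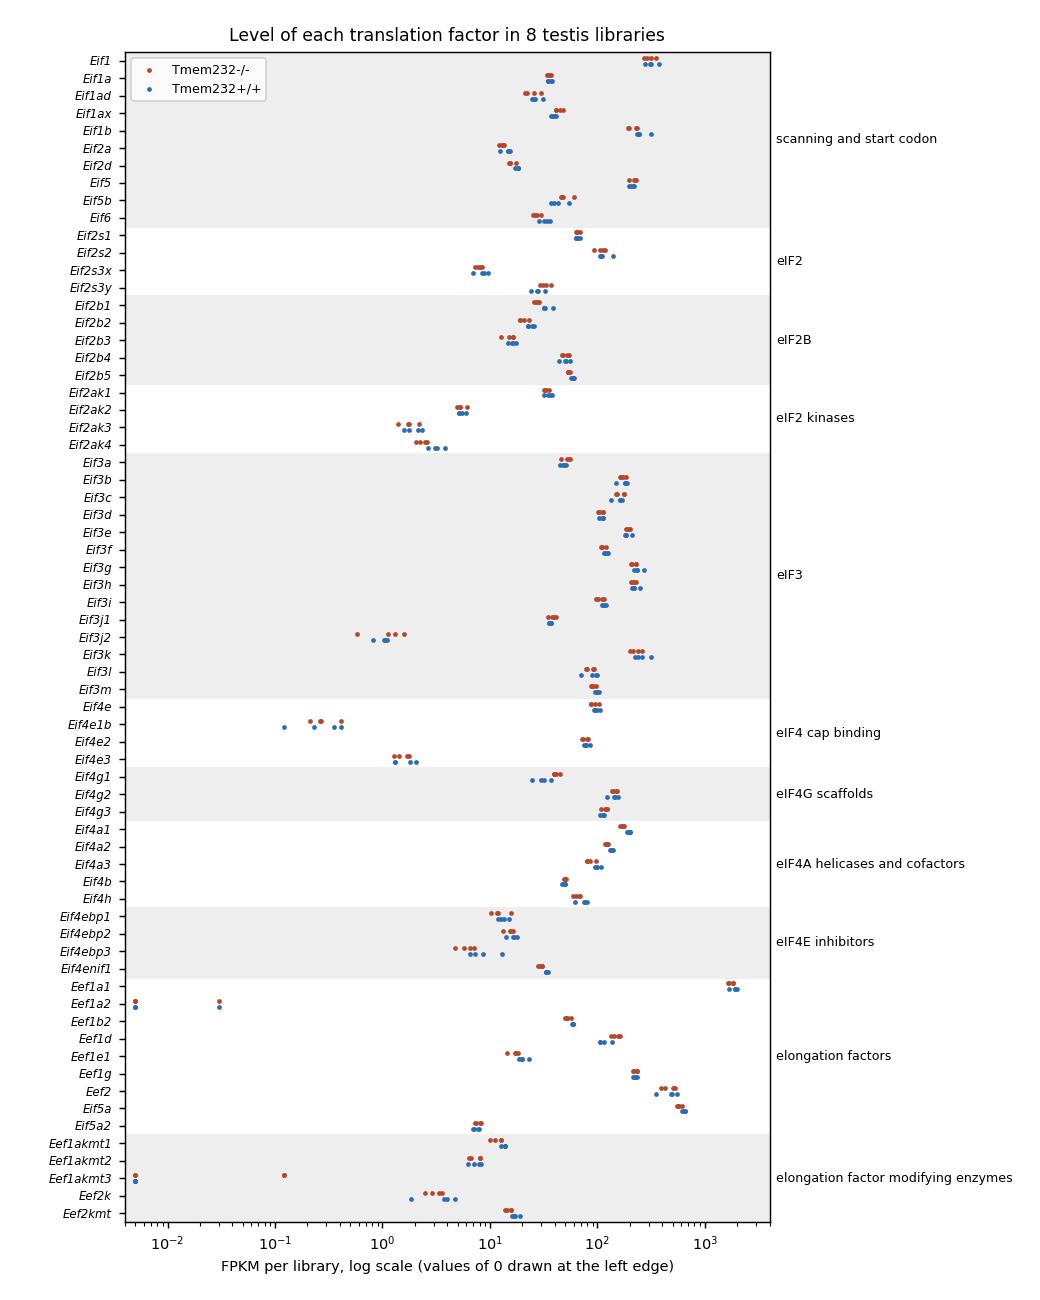
FPKM of each of the 67 translation factors in each of the 8 libraries, on a log axis, grouped by role. The points of the genotypes lie close together for most genes, while levels range from 0 for Eef1a2 in 6 libraries to 2006 for Eef1a1.

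Eef1d, eEF1B subunit delta (gene ID 66656, chromosome 15, 75894796 to 75909730, GRCm38), showed the largest difference of the 64 in log2 fold change on counts. On log2(FPKM + 1) the difference of Eif4g1, 0.41, was larger than that of Eef1d, 0.38. Its CPM was 195, 172, 155 and 176 in knockout-labelled libraries 1 to 4 and 107, 101, 133 and 114 in the wild-type-labelled ones. Every knockout-labelled library was above every library of the other genotype, and the closest pair was library 3 of each. The log2 fold change was 0.62 (standard error 0.0981, 1.53-fold, adjusted p = 0.00118 by edgeR). It passed under all 18 alternatives tried, at adjusted p from 1.27e-07 to 0.0327.

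On the FPKM scale the rise of Eef1d was smaller and the genotypes overlapped. FPKM was 163, 144, 134 and 157 in the knockout-labelled libraries and 105, 106, 136 and 114 in the others, so library 3 labelled Tmem232+/+ exceeded library 3 labelled Tmem232-/-. Limma on log2(FPKM + 1) gave a log2 difference of 0.38 with an adjusted p of 0.032. The log2 fold change from counts was 0.73 without library 3 labelled Tmem232+/+ (adjusted p = 8.01e-05 by edgeR).

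Apart from a factor shared by all genes of a library, counts and FPKM of a gene differ through the length that the authors' quantification gave to its transcripts, so dividing one by the other returns that mean length. For Eef1d it was 1156, 1182, 1139 and 1132 bases in the knockout-labelled libraries and 997, 982, 999 and 1013 bases in the wild-type-labelled ones. The groups did not overlap, with means of 1152 ± 22.2 and 998 ± 12.4 bases (SD, n = 4 each). The log2 difference was 0.21 with a standard error of 0.0159, or 1.15-fold, and an adjusted p of 0.0079 in limma over 8950 genes. Leaving out library 1 labelled Tmem232-/- raised the adjusted p to 0.0545 at a log2 difference of 0.21. This comparison was chosen after the counts and FPKM had been seen to differ.

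Eef1d was the only 1 of 57 factors with a usable length that was called, where 0.402% of all genes with a length were. The next largest length difference among the factors was −0.04 on the log2 scale, for Eif5a2. Lengths of the eIF3 subunits were nearly constant, as for Eif3a, at 5002 to 5003 bases in the 8 libraries.

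Eef1d has 18 transcripts in GENCODE release M21 on GRCm38, of which 15 are coding, and the deposited table lists 25. The coding transcripts divide at an exon whose coding part in Eef1d-204 is chr15:75902679-75903808, 1130 bases long on the minus strand. In Eef1d-204 this exon holds the start codon of a protein of 660 residues. Eef1d-218 skips it and encodes 281 residues from a start codon 7 bases into the next exon, chr15:75901132-75901255. Long and short refer to the protein, since the transcript Eef1d-218 has 2312 bases and Eef1d-204 has 2152. The junctions that tell the forms apart are printed from the GENCODE transcripts, with the shared exon in capitals and the exon before it in lower case.
Eef1d-204, long form: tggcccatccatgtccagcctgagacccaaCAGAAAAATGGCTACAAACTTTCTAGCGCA
Eef1d-218, short form: gtccttggctggcgtCAGAAAAATGGCTAC
The ATG in the capitals is the start codon of the short form and lies in frame in the long one, whose added N-terminal region is 379 residues. The long protein is known from brain and testis.

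Coding transcripts with the exon were 1724 to 2842 bases long and those without it 350 to 2312 bases, and they also differed at their last exon, which reached 1387 bases. The table gives 1 row per gene, so which of these transcripts gave the longer mean in the knockout-labelled libraries was not tested.

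**Figure D3:**
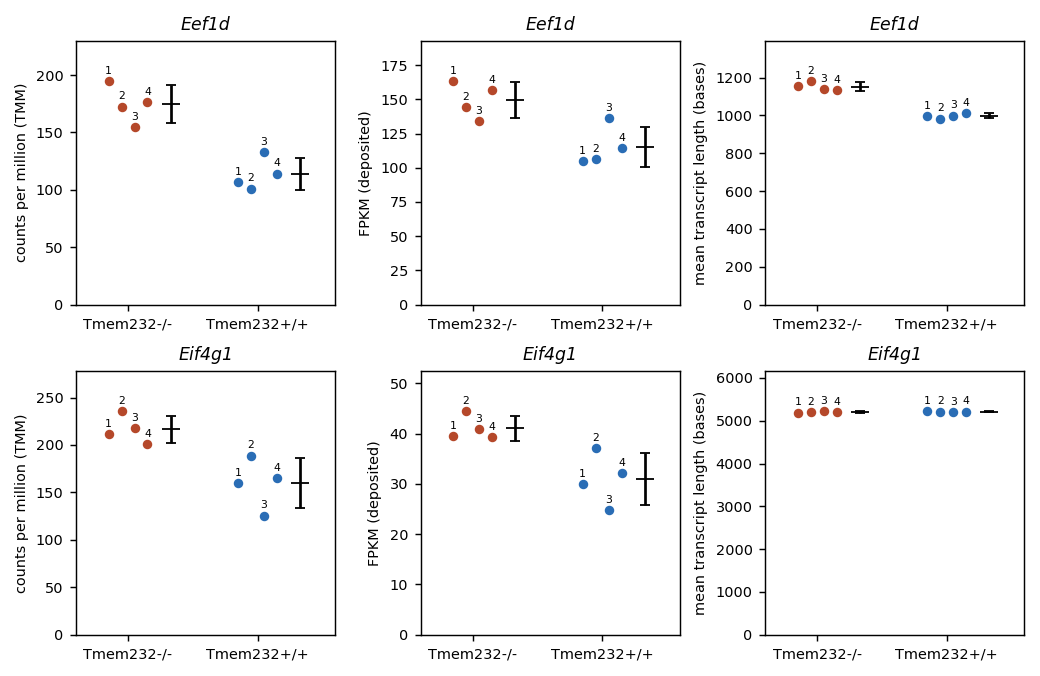
CPM, FPKM and mean transcript length of Eef1d (top) and Eif4g1 (bottom) in each library, numbered by replicate, with mean and SD (n = 4) beside the points. CPM of both genes separates the genotypes. The length of Eef1d is 1152 against 998 bases on average, while that of Eif4g1 lies between 5189 and 5224 bases in all 8 libraries.

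The other subunits of the eEF1B complex were not called, and their difference from Eef1d was not tested. Eef1g, the gamma subunit, had a log2 fold change of 0.05 and Eef1b2, the alpha subunit that carries exchange activity, of −0.13, with adjusted p of 0.686 and 0.207 by edgeR. Without library 1 labelled Tmem232+/+ Eef1g lay at 0.13 and Eef1b2 at −0.07, and without library 2 labelled Tmem232-/- Eef1g lay at 0.03. The CPM of Eef1b2 was lower in every knockout-labelled library than in any of the other genotype. Eef1e1, a relative of these subunits that sits on the multisynthetase complex, had a log2 fold change of −0.24 (adjusted p = 0.191), and of −0.15 without library 3 labelled Tmem232+/+.

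Eef1a1, the factor that delivers aminoacyl-tRNA, was the most abundant of the 67. Its FPKM was 1651, 1826, 1842 and 1694 in the knockout-labelled libraries and 2006, 1905, 1687 and 1903 in the others. The ranges overlapped, with a log2 fold change of −0.06 (adjusted p = 0.651 by edgeR). Eef1a2, its muscle and neuron paralog, had at most 1 read in any library, which is no more than the 3 counts taken as the floor, and it was not tested.

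Eef2, the translocation factor, varied widely within each genotype. Its FPKM averaged 463 ± 68.5 (SD, n = 4) in the knockout-labelled libraries and 468 ± 85.0 (SD, n = 4) in the others, with an adjusted p of 0.955 by edgeR. The lowest value of all, 348, was in library 3 labelled Tmem232+/+, and without it the log2 fold change went from 0.02 to −0.07. Without library 1 of that genotype it was 0.16.

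Eif5a, which carries hypusine and helps ribosomes over stalling sequences, was second only to Eef1a1. Its FPKM was 574, 557, 555 and 613 in the knockout-labelled libraries and 649.9, 616, 653 and 645 in the others. These values did not overlap, but CPM did, and the log2 fold change of −0.11 had an adjusted p of 0.314 by edgeR and was −0.04 without library 1 labelled Tmem232+/+. Its counts were fractional in all 8 libraries, which can arise where reads are shared between genes, and its value is uncertain to that extent. The paralog Eif5a2 stood at 8.08, 7.34, 8.17 and 7.29 FPKM against 7.72, 7.94, 7.17 and 6.88 FPKM, which overlapped.

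Among the enzymes that modify elongation factors, Eef2kmt, which methylates eEF2, had the highest level. Its FPKM was 15.8, 13.8, 14.3 and 15.7 in the knockout-labelled libraries and 16.8, 16.1, 18.9 and 16.9 in the others, with a log2 fold change of −0.17 (adjusted p = 0.205 by edgeR), or −0.10 without library 3 labelled Tmem232+/+. Its counts were fractional too. Eef2k, the kinase that inhibits eEF2, stood near 3.07 and 3.57 FPKM, with log2 fold change −0.12 and an adjusted p of 0.682 by edgeR, and ran from −0.24 without library 3 labelled Tmem232+/+ to −0.02 without library 2 of that genotype. Eef1akmt1 and Eef1akmt2, methyltransferases of eEF1A, were not called, and Eef1akmt3 had at most 1 read in a library and was not tested.

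Eif4g1 (gene ID 208643, chromosome 16, 20672720 to 20692883, GRCm38) was the other factor that rose. Its CPM was 211, 236, 218 and 201 in knockout-labelled libraries 1 to 4 and 159.7, 189, 126 and 165 in the wild-type-labelled ones. All 4 of the first were above all 4 of the second, and library 3 labelled Tmem232+/+ was the lowest. The log2 fold change was 0.44 (standard error 0.11, 1.35-fold, adjusted p = 0.0228 by edgeR). Without library 3 labelled Tmem232+/+ it was 0.37 with an adjusted p of 0.0117. The call was lost when library 1, 2 or 3 labelled Tmem232-/- or library 4 labelled Tmem232+/+ was left out, at adjusted p of 0.0502, 0.0782, 0.0545 and 0.0556, with log2 fold changes of 0.39 to 0.45.

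FPKM of Eif4g1 also separated the genotypes, at 39.5, 44.5, 41.0 and 39.3 against 29.99, 37.2, 24.7 and 32.1. It was still the lowest of the 3 scaffolds. Eif4g2, which lacks the cap-binding protein's site and drives cap-independent initiation, stood at 141, 150.0, 151 and 135 against 144, 156, 124 and 146 FPKM, with an adjusted p of 0.736 by edgeR. Eif4g3, the paralog needed in male meiosis, stood at 118, 122, 122 and 107 against 112, 114, 105 and 115 FPKM, with an adjusted p of 0.41. The ranges of both overlapped between genotypes.

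Of the cap-binding proteins, Eif4e stood at 103, 86.4, 87.1 and 93.9 FPKM in the knockout-labelled libraries and 93.1, 99.5, 105 and 95.0 FPKM in the others. The ranges overlapped, with a log2 fold change of −0.03 (adjusted p = 0.841 by edgeR). Eif4e2, a relative with a role in repression, was close in level, at 76.9 and 79.0 FPKM on average, and Eif4e3 was low, at 1.53 and 1.62 FPKM. Eif4e1b, the form of oocytes and early embryos, had 4 to 11 reads per library and was not tested.

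Of the helicase eIF4A and its helpers, 4 of 5 had negative log2 fold changes, as 60.8% of all tested genes and 62.5% of the factors did. None was called by edgeR with TMM scaling. Eif4a1 stood at 171, 162, 168 and 178 FPKM in the knockout-labelled libraries and 188, 203, 200.1 and 191 FPKM in the others, without overlap. Its log2 fold change of −0.17 had an adjusted p of 0.0956 by edgeR, and DESeq2 gave an adjusted p of 0.0396. Eif4a2, its paralog, stood at 124, 116, 126 and 121 against 136, 141, 133 and 131 FPKM, with an adjusted p of 0.279. FPKM of Eif4a2 did not overlap, while its CPM did. Eif4a3, the helicase of the exon junction complex, and Eif4h, a helper of eIF4A, had log2 fold changes of −0.19 and −0.15 with adjusted p of 0.134 and 0.329, and Eif4b one of 0.05. Without library 1 labelled Tmem232+/+ Eif4h lay at −0.05 and Eif4b at 0.09.

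All 4 inhibitors of eIF4E had negative log2 fold changes, from −0.51 to −0.07, where 60.8% of all genes did, and none was called by edgeR with TMM scaling. Without library 3 of either genotype 1 of them, Eif4ebp1, lay above 0. Eif4enif1, which carries eIF4E into the nucleus and represses its messengers, was the most abundant, at 29.5, 27.8, 30.3 and 30.2 FPKM in the knockout-labelled libraries and 33.5, 34.5, 33.4 and 33.4 FPKM in the others. These did not overlap, and the adjusted p of Eif4enif1 was 0.105 by edgeR with TMM scaling. It was 0.0436 by edgeR with library size alone and 0.042 by limma on log2(FPKM + 1), so both called it lower. Eif4ebp3, a small eIF4E-binding protein, had a log2 fold change of −0.51 with a standard error of 0.211 and an adjusted p of 0.161. It stood at 12.4 CPM in library 3 labelled Tmem232+/+, against 6.48, 6.84 and 8.29 CPM in the other 3, and without that library the log2 fold change was −0.24 (adjusted p = 0.402 by edgeR). Eif4ebp1 and Eif4ebp2, its relatives under mTORC1, lay at −0.07 and −0.08. With 1 library left out Eif4ebp1 ran from −0.18, without library 4 labelled Tmem232-/-, to 0.02, and Eif4ebp2 from −0.11 to −0.01, the last without library 1 labelled Tmem232+/+.

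For eIF2 itself, Eif2s2, the beta subunit, had the highest level, at 117, 93.0, 105 and 113 FPKM in the knockout-labelled libraries and 106, 111, 139 and 108 FPKM in the others. The ranges overlapped, with an adjusted p of 0.659 by edgeR. Eif2s1, the alpha subunit that the stress kinases phosphorylate, had a log2 fold change of 0.03, which was 0.09 without library 1 labelled Tmem232+/+ and −0.01 without library 1 labelled Tmem232-/-. The gamma subunit has copies on both sex chromosomes, and the Y-linked copy was the higher of them. Eif2s3y stood at 37.0, 31.2, 33.5 and 29.3 FPKM against 23.9, 27.5, 32.3 and 28.1 FPKM, with an adjusted p of 0.172. Eif2s3x stood at 7.29, 8.46, 7.67 and 8.16 FPKM against 8.41, 9.61, 6.98 and 8.87 FPKM, with an adjusted p of 0.712. Both overlapped between genotypes.

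The exchange factor eIF2B, which reloads eIF2 with GTP, had no subunit called by edgeR with TMM scaling. A negative log2 fold change was found for 4 of 5 subunits, against 60.8% of all genes. The number was 3 of 5 without library 2 labelled Tmem232-/- or library 3 labelled Tmem232+/+. Eif2b5, the catalytic subunit, was the most abundant, at 55.6, 53.4, 53.7 and 53.2 FPKM in the knockout-labelled libraries and 59.4, 59.3, 56.6 and 60.6 FPKM in the others. These did not overlap, while CPM did, and the adjusted p was 0.372 by edgeR. Eif2b1, the alpha subunit, had a log2 fold change of −0.24 (adjusted p = 0.0566), the lowest p of any factor below 0 in the test of all 8 libraries, and of −0.15 (adjusted p = 0.176) without library 3 labelled Tmem232+/+. CPM of Eif2b1 did not overlap, at 53.6, 47.3, 49.96 and 50.3 against 58.4, 56.5, 65.4 and 56.5. With library size alone edgeR called Eif2b1 lower (adjusted p = 0.0349), as did limma on log2(FPKM + 1) (adjusted p = 0.0403).

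Of the 4 kinases that phosphorylate eIF2, Eif2ak1, the heme-regulated one, had the highest level, at 32.7, 33.3, 35.7 and 31.9 FPKM in the knockout-labelled libraries and 34.4, 37.6, 32.0 and 36.6 FPKM in the others. These overlapped, and the adjusted p was 0.759 by edgeR. Eif2ak4, the kinase that senses uncharged tRNA, was low, at 2.34 ± 0.226 and 3.19 ± 0.492 FPKM (SD, n = 4 each), with a log2 fold change of −0.38 (adjusted p = 0.0884). Without library 3 labelled Tmem232+/+ this became −0.44 with an adjusted p of 0.0256. Eif2ak2 and Eif2ak3, which respond to double-stranded RNA and to unfolded protein, had log2 fold changes of 0.01 and −0.11. That of Eif2ak2 ran from −0.04 without library 1 labelled Tmem232-/- to 0.06 without library 1 labelled Tmem232+/+. That of Eif2ak3 ran from −0.19 without library 3 labelled Tmem232+/+ to −0.02 without library 2 of that genotype.

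None of the 14 eIF3 genes was called by edgeR, where 10.3% of all genes were higher and 1.46% lower. None had an unadjusted p under 0.05, where 14.6% of all genes were higher and 10.5% lower. With 7 above and 7 below 0, they had a median log2 fold change of −0.0022. Without library 1 labelled Tmem232+/+ 9 were above and 5 below, with a median of 0.0952, where that of all genes was −0.0067. Eif3k, a small accessory subunit, had the highest level, at 237, 215, 199.6 and 261 FPKM in the knockout-labelled libraries and 262, 226, 313 and 236 FPKM in the others, with an adjusted p of 0.444. The ranges overlapped. Among the rest, mean FPKM ran from 48.0 for Eif3a, the largest subunit, to 238 for Eif3g in the wild-type-labelled libraries, leaving out the loosely bound eIF3j. Its copies Eif3j1 and Eif3j2 stood at 36.1 and 0.998 FPKM there and had fractional counts in every library, so reads could pass between them.

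In the group that acts in scanning and start-site choice, Eif1, the gatekeeper of start codons, stood at 314, 291, 270.5 and 352 FPKM in the knockout-labelled libraries and 308, 276, 373 and 318 FPKM in the others. Its ranges overlapped, its log2 fold change was −0.02 (adjusted p = 0.91 by edgeR), and its counts were fractional. The paralog Eif1b stood at 228, 191, 196 and 235 against 245, 233, 315 and 246 FPKM, also with overlap, and had a log2 fold change of −0.25 (adjusted p = 0.17), or −0.12 without library 3 labelled Tmem232+/+.

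Eif1ax, the X-linked copy of eIF1A, was higher in every knockout-labelled library than in any other, at 33.2 ± 2.26 against 29.0 ± 1.33 CPM (SD, n = 4 each), and had an adjusted p of 0.139 by edgeR. Its autosomal copy Eif1a had a log2 fold change of 0.02, which was −0.01 without library 1 labelled Tmem232-/- and 0.10 without library 1 labelled Tmem232+/+. Eif5b, which joins the ribosomal subunits, had a log2 fold change of 0.25 (adjusted p = 0.262) and fractional counts, and 0.40 with an adjusted p of 0.0319 without library 3 labelled Tmem232+/+. Without library 1 labelled Tmem232-/- it was 0.14. Eif6, which keeps the subunits apart, had a log2 fold change of −0.23 (adjusted p = 0.162), and of −0.11 without library 1 labelled Tmem232+/+. Eif5, the activator of GTP hydrolysis by eIF2, lay at 0.10, and at 0.17 without library 4 labelled Tmem232-/-. Eif2a and Eif2d, which can bring initiator tRNA without eIF2, and Eif1ad, a relative of eIF1A, lay from −0.13 to −0.09. Without library 3 labelled Tmem232+/+ Eif2a lay at −0.05 and Eif1ad at 0.01, without library 4 labelled Tmem232-/- Eif1ad lay at −0.17, and without library 1 labelled Tmem232+/+ Eif2d lay at −0.08.

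Ratios between paralogs were compared within libraries as the log2 ratio of FPKM, each plus 0.01, with an exact two-sided permutation test over the 70 arrangements of the libraries. Of 7 pairs, Eef1a1 and Eef1a2 was left out for lack of reads. The smallest p this design allows is 0.029, and after adjustment over 6 pairs none passed 0.05. Even the pairs at that smallest p, with the genotypes fully separated, had an adjusted p of 0.086 by this test. So few pairs at that p could not have passed, and the lack of a call does not show equal ratios. The ratio of Eif4g1 to Eif4g3 was −1.58, −1.45, −1.57 and −1.45 in the knockout-labelled libraries and −1.90, −1.61, −2.08 and −1.84 in the others, without overlap (exact p = 0.029, adjusted p = 0.086). The ratio of Eif1 to Eif1b was 0.46, 0.60, 0.46 and 0.58 against 0.33, 0.25, 0.24 and 0.37, also without overlap (exact p = 0.029, adjusted p = 0.086). For the X- and Y-linked eIF2 gamma the ratios overlapped, with means of −2.05 ± 0.232 and −1.72 ± 0.331 (SD, n = 4 each; exact permutation p = 0.143). Eif5a to Eif5a2, Eif4a1 to Eif4a2 and Eif4e to Eif4e1b also overlapped, with adjusted p of 0.114, 0.309 and 0.657 by the exact permutation test.

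**Figure D4:**
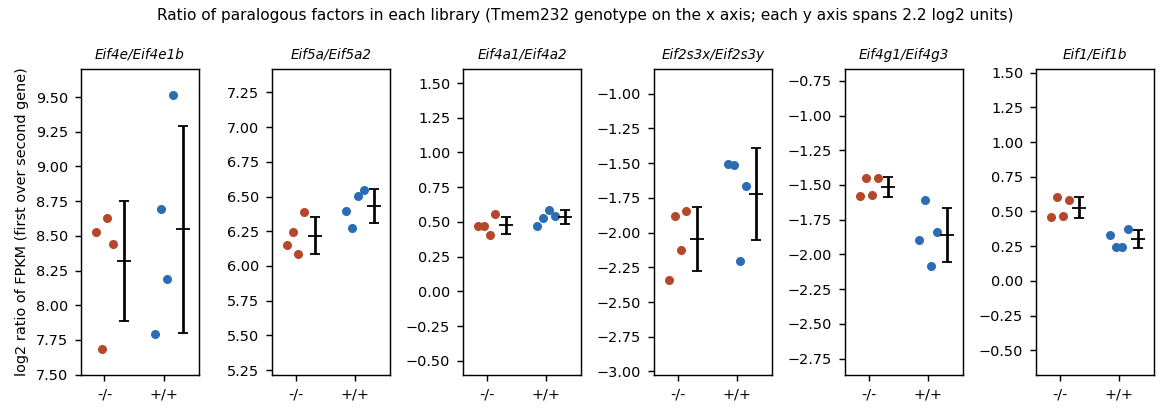
Log2 ratio of FPKM of 6 pairs of paralogous factors in each library, with mean and SD (n = 4) beside the points. The ratios of Eif4g1 to Eif4g3 and of Eif1 to Eif1b do not overlap between genotypes, and those of the other 4 pairs do.

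Of 54 other tested genes of translation, in 6 lists, 3 were higher (5.56%, against 10.3% of all genes) and 0 lower (against 1.46%) at an adjusted p under 0.05 by edgeR. At an unadjusted p under 0.05 there were 5 in each direction (9.26%, against 14.6% higher and 10.5% lower of all genes). DESeq2 also called none lower, against 1.25% of all genes with an adjusted p, and limma-voom called 1, against 1.47% of all genes. Their median log2 fold change was −0.05. Asns, asparagine synthetase and a target of ATF4 in the response to eIF2 phosphorylation, stood at 83.9, 71.6, 73.4 and 80.5 CPM in the knockout-labelled libraries and 51.7, 49.0, 52.0 and 48.0 CPM in the others. It did not overlap, with a log2 fold change of 0.62, a standard error of 0.0706 and an adjusted p of 0.00012. It was the only 1 of 9 genes of that list called, and the list's median was −0.01.

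Etf1, the release factor that reads stop codons, stood at 169, 160.0, 150.1 and 133 against 122, 121, 108 and 125 CPM, without overlap, with a log2 fold change of 0.36 (adjusted p = 0.0143 by edgeR). The call was lost without library 2 labelled Tmem232-/-, at a log2 fold change of 0.34 (adjusted p = 0.0508 by edgeR). It was also lost with the replicate block, at 0.36 (adjusted p = 0.0525 by edgeR). Etf1 was the only 1 of 9 genes of termination and recycling called. Pabpc1l, a poly(A)-binding protein of oocytes, was the only 1 of 13 called in its list, with a log2 fold change of 1.80 (adjusted p = 0.0141), but it had 17 to 28 reads in the knockout-labelled libraries and 1 to 11 in the others. None of 12 genes of mTORC1 and MNK signalling, 9 mitochondrial translation factors or 2 hypusine enzymes was called by edgeR. Of all genes 10.3% were called higher and 1.46% lower. At an unadjusted p under 0.05, 1 was higher and 2 lower in each of the first 2 lists and 0 in the third. Of all genes 14.6% were higher and 10.5% lower at that p.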

How the data were processed

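RNA of whole testis from 8 mice aged 2 months, 4 per genotype as the labels give it, was sequenced in pairs of reads. The authors mapped clean reads to GRCm38.p6, and the submitters' notes name HISAT, Bowtie2, StringTie, featureCounts and DESeq2 without versions. The authors deposited an estimated count and an FPKM (fragments scaled to transcript length and library size) for each gene and library. Between 10.7% and 11.2% of genes had fractional counts in a library, which can arise where reads are shared between genes. Columns of log2 ratios, p-values and q-values of the authors' own comparison, and group averages, were deposited too and were not used.

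Counts were rounded and tested in edgeR 4.0.16 (quasi-likelihood, TMM scaling, its expression filter), with n = 4 per genotype and Benjamini-Hochberg adjustment over all 15787 genes tested. CPM are TMM-scaled. Alternatives were DESeq2 1.42.0, other scalings and filters, limma 3.58.1 (voom, or log2 of FPKM plus 1 or 0.1), a replicate block and each library left out. The mean transcript length was count × 1000000000 / (FPKM × library total), with the offset of each library taken from genes with 1 transcript, in genes with FPKM of at least 5 and 50 counts in every library. It was fitted in limma and added after the data were seen. Both fits were tested on simulated data.

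Values in every library are given for factors called at an adjusted p under 0.05. They are also given for the factor with the highest mean FPKM in each role. Both members of the paralog pairs have them too, except Eif4e1b and Eef1a2, which were not tested. Of the other genes of translation, those called are named, at most 4 per list. The factors, lists and pairs were chosen with earlier results of these data known. Other factors named were chosen after their values were seen. Nothing states that a library is other than 1 animal, and p-values measure the spread between these samples. Replicate numbers did not pair the libraries.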

Additional observations from a re-analysis of the deposited data

Results flagged for a closer look

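A sample was singled out where its gap to the nearest other of its group of 4 exceeded Dixon's 95% critical share of the group's range, on CPM. Over 128 such groups of the 64 factors, 5 did, where chance gives about 1 in 20. Eif2a in replicate 1 labelled Tmem232+/+ was the lowest of its group at 26.6 CPM, against 30.5 CPM for the next. Eif3j1 in replicate 2 labelled Tmem232+/+ was the lowest at 76.6 CPM, against 80.8 CPM. Eif3f in replicate 4 labelled Tmem232-/- was the highest at 158 CPM, against 149 CPM. Replicate 3 labelled Tmem232+/+ gave the other 2, with Eif2s2 the highest at 319 CPM, against 252 CPM, and Eif5 the lowest at 731 CPM, against 797 CPM. For 79.7% of the factors that replicate lay outside the range of the other 3 of its group, as it did for 71.4% of all tested genes.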

How the results depend on the processing

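Eef1d and Eif4g1 were called higher under all 10 alternatives of tool, scaling, filter and block. Factors called higher numbered 1 to 4 and lower 0 to 1 of 64 with 1 library left out (1.56% to 6.25% and 0% to 1.56%), against 8.53% to 11.7% and 0.232% to 2.24% of all genes, 1356 to 1865 of them higher. Without replicate 3 labelled Tmem232+/+, Eif2s3y and Eif5b were called higher and Eif2ak4 lower, and without replicate 4 labelled Tmem232-/- Eif3a was called higher, at a log2 fold change of 0.23 (adjusted p = 0.0384, edgeR). DESeq2 called 1 factor lower. Library size alone and limma on log2(FPKM + 1) or log2(FPKM + 0.1) each called 3 lower (4.69%, against 2.63%, 2.95% and 2.84% of all genes), Eif2b1, Eif4a1 and Eif4enif1, with adjusted p from 0.0349 to 0.0465 under the first 2. The median of the factors was −0.10 with library size alone, −0.094 with log2(FPKM + 0.1), −0.019 without a filter, and −0.061 to −0.008 with 1 library left out. Under the first 3 the median shift was −0.034, −0.033 and 0.043, equal for the factors and for all genes at this rounding. With 1 library left out the median of all genes ran from −0.056 to −0.0067.

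Among the other genes of translation, 1 was lower with library size alone, limma-voom and either FPKM fit. Of all genes 2.63% were lower with library size alone and 1.47% with limma-voom. With log2(FPKM + 1) and log2(FPKM + 0.1) 2.95% and 2.84% were. With 1 library left out 0 to 1 of these genes of translation was lower, against 0.232% to 2.24% of all genes. Higher calls fell from 3 to 2 with the replicate block and without replicate 2 labelled Tmem232-/-, which lost Etf1 (adjusted p = 0.0525 and 0.0508, edgeR). The log2 fold change of Etf1 was 0.36 and 0.34 there, against 0.36 in the main test. Higher calls also fell to 2 with at least 10 counts in every library, where Pabpc1l was not tested. All genes called lower numbered 139 with DESeq2 size factors, 415 with library size alone, 71 without a filter, 466 and 448 with log2(FPKM + 1) and log2(FPKM + 0.1), and 37 to 356 with 1 library left out. Calls that were higher made up 87.7% of all calls in the main test and 76.7% with log2(FPKM + 1), 77.4% with log2(FPKM + 0.1) and 97.9% with the replicate block. Same-numbered libraries did not deviate together (correlations −0.06, 0.07, −0.33 and −0.11), and with the replicate block 1317 genes were higher and 28 lower, with the same 2 factors called. In the block fit Eef1d had a log2 fold change of 0.62 and Eif4g1 of 0.45.

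Values near 0 changed sign. Without a filter, where the median shift of all genes was 0.043, the log2 fold changes of Eif4e, Eif1 and Eif2ak1 were 0.014, 0.018 and 0.0033. With 1 library left out, Eif4e ran from −0.090 to 0.035, Eef1a1 from −0.090 to 0.027, Eif1 from −0.094 to 0.086, Eif5a2 from −0.0011 to 0.134, Eif2s2 from −0.136 to 0.044, Eif2ak1 from −0.076 to 0.006, and the log2 ratio difference of Eif4e to Eif4e1b from −0.48 to 0.10. Depth limited Eif4e1b, Eef1a2 and Eef1akmt3, at 11 reads or fewer per library.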
